A study of Mus musculus with 10 samples.

Results

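The 6 genes described here encode transport and regulatory proteins of the distal convoluted tubule of the kidney. They are Pvalb, Slc12a3, Calb1, Trpm6, Wnk1 and Wnk4, chosen by name for the order in which their transcripts were lost and returned after injury. They are 6 of 28808 gene symbols in the tables, and all 6 were present in all 10 libraries. Because that course over the days chose them, their levels are given as a description with no test.

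Drop-seq, which captures the RNA of single cells on barcoded microbeads and counts 3' ends of transcripts, was applied to kidney cortex of mice aged 4 weeks. The control was 1 library of normal kidney. Injured kidney gave 1 library each of days 1, 2 and 4 and a pair of libraries for each of days 7, 11 and 14. Nothing in the labels tells the kind of injury, genotype, strain or sex, or whether a day's pair came from separate animals, so the p-values given further on measure only the spread between these libraries, which may be technical.

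The distal convoluted tubule reabsorbs sodium chloride from the urine through a cotransporter in its apical membrane, and the WNK kinases set the phosphorylation of that cotransporter through downstream kinases. The same segment takes up magnesium through an apical channel, and its later portion and the connecting tubule carry calcium across the cell with the help of calcium-binding proteins. Slc12a3 encodes the cotransporter, the target of thiazide diuretics. Trpm6 encodes the magnesium channel. Pvalb (parvalbumin) and Calb1 (calbindin) encode calcium-binding proteins, the first typical of the early part of the segment and the second of the later part and the connecting tubule. Wnk1 and Wnk4 encode the kinases.

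Pvalb and Slc12a3 stood lowest and highest relative to control on day 1, and the reference sequence upstream of their start sites is shown for that reason, 5' to 3' on the strand of the gene, from 250 to 11 bases before the RefSeq start (GRCm38.p6). The Pvalb window is chr15:78206411-78206650 on the minus strand, and the Slc12a3 window is chr8:94328958-94329197 on the plus strand. Capitals mark the letters TATAAA.
Pvalb: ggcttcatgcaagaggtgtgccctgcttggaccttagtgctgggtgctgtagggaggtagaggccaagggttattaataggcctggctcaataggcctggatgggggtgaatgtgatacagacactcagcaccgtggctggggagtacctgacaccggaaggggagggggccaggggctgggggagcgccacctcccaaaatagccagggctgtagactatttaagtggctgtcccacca
Slc12a3: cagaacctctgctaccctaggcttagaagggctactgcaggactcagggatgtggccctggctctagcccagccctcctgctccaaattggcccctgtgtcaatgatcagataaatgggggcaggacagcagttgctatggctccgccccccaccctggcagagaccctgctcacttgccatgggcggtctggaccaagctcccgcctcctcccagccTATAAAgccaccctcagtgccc
RefSeq also gives Pvalb a second start with the window chr15:78204248-78204487, not shown. The Slc12a3 window holds TATAAA, beginning 32 bases before the start, and neither Pvalb window holds these letters. On either strand, TATAAA occurs in 12.1% of the 32851 upstream windows of the same length. The letters TGACTCA, bound by AP-1, occur in 4.35% of them, and TCAAGGTCA, bound by oestrogen-related receptors, in 0.381%. Neither occurs in the Pvalb windows or the Slc12a3 window. The GC content was 58.8% for the Pvalb window shown, 70.8% for the other and 61.3% for Slc12a3, against a median of 52.1% over all windows. No measurement in these libraries bears on binding at these sequences.

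In the GENCODE annotation of GRCm38 the genes lie on different chromosomes and are all protein-coding. Pvalb occupies chr15:78191114-78206400, Slc12a3 chr8:94329201-94366214, Calb1 chr4:15881264-15908064 and Trpm6 chr19:18749983-18892511. Wnk1 occupies chr6:119923969-120038672 and Wnk4 chr11:101260567-101277409. Genes on the opposite strand overlap Trpm6 (Gm24190), Wnk1 (Gm16199) and Wnk4 (Gm11615), and no source says that counting used the strand, so reads of these pairs cannot be told apart. Mir706 overlaps Wnk1 on the same strand, where strand could not separate the 2 either. A count of 3' ends also does not separate the short kidney-specific Wnk1 transcript, which lacks most of the kinase domain, from the full-length one.

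The libraries held 7091848 to 31632205 unique molecular identifiers (UMIs, taken as counts of captured transcripts) over 3585 to 10800 barcodes each. Mitochondrial genes took a mean of 28.0% of a barcode's UMIs in the control, 4.43% and 5.90% at day 7 and 8.66% to 22.4% on the other days. Levels are given as CPM, a gene's UMIs divided by all UMIs of the set and scaled to a common total. Macrophage markers, 7 of 8 in the tables, summed to 24.6 CPM in the control, 6739 and 6885 at day 7, and 36.2 and 57.1 at day 14. The day 2 library stood apart: 2324 of its 3883 used barcodes fell in a cluster that was 96.8% day 2 and was led by interferon-response genes (Ifit1, Oasl1, Ifit3). That cluster was named proximal from 4 proximal markers, and it held 63.8% of the Slc12a3 UMIs of day 2. Levels in sums over all barcodes, given next, do not tell fewer cells of a type from less RNA per cell.

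Pvalb was the gene with the lowest level relative to control on days 1, 2, 4 and 7. Its level in all barcodes was 314 CPM in the control library (9943 UMIs), 4.48 at day 1 (40 UMIs), 0.734 at day 2 (12 UMIs) and 22.5 at day 4 (496 UMIs). On day 7 the 2 libraries gave 1.55 (11 UMIs) and 7.65 (125 UMIs). The day 11 pair gave 169 and 182, and the day 14 pair 189 and 151. The control was the highest library, days 11 and 14 overlapped each other, and all libraries of days 1 to 7 were at or below 22.5 CPM. In tubular clusters alone, day 11 (223 and 227) lay above day 14 (208 and 160). Relative to control, Pvalb stood at 1.42% at day 1 and 0.234% at day 2, a 428-fold lower level (95% counting interval 0.121% to 0.408% of control). It stood at 7.15% at day 4. On day 7 the mean was 1.46%, made of 0.493% and 2.43% in the separate libraries, a gap wider than counting error. Day 11 stood at 55.8% and day 14 at 54.2%.

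Slc12a3, the cotransporter, kept a far larger part of its control level. It measured 173 CPM in the control, 130 at day 1, 46.6 at day 2 and 79.7 at day 4. The libraries of day 7 gave 64.0 and 60.4, those of day 11 107 and 133, and those of day 14 247 and 195. Both day 14 libraries lay above the control and every other injured library lay below it. As a percentage of control the course was 75.4 at day 1, 27.0 at day 2, 46.1 at day 4, 36.0 at day 7, 69.5 at day 11 and 128 at day 14.

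Calb1, the calcium-binding protein of the later portion, measured 573 CPM in the control and 97.7, 91.2 and 145 on days 1, 2 and 4. It measured 104 and 134 at day 7, 275 and 199 at day 11, and 408 and 428 at day 14. Its groups from day 7 on did not overlap, each day standing above the one before, and all remained below the single control. Relative to control the level was 17.1% at day 1, 15.9% at day 2, 25.3% at day 4, 20.7% at day 7, 41.4% at day 11 and 72.9% at day 14.

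Trpm6, the magnesium channel, was the least abundant of the 6 in the control and had 57 to 538 UMIs per library. Pvalb lay below it at day 1, at day 2 and in the first day 7 library. It measured 17.0 CPM in the control, 8.73 at day 1, 3.49 at day 2 and 5.71 at day 4. The later libraries gave 9.87 and 7.35 at day 7, 5.79 and 4.76 at day 11, and 9.80 and 8.52 at day 14. Day 11 lay below both day 7 and day 14, and the control was again highest. In percent of control these were 51.3, 20.5 and 33.5 on the single-library days, then 50.6, 31.0 and 53.9 on days 7, 11 and 14. When totals were scaled by TMM, a method that sets libraries to a common level over most genes, both day 7 and day 11 stood at or below 30.3%, so the gap between those days depended on the scaling.

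Wnk1, the upstream kinase, measured 354 CPM in the control, 127 at day 1, 93.6 at day 2 and 110 at day 4. It measured 139 and 128 at day 7, 135 and 136 at day 11, and 262 and 225 at day 14. Days 7 and 11 overlapped in CPM, day 14 lay above both, and the control lay above all. That overlap depended on the scaling: on TMM-scaled totals Wnk1 measured 99.5 and 94.97 at day 7, below the 157 and 167 of day 11. The percentages of control were 35.9, 26.5, 31.0, 37.9, 38.2 and 68.8 in order of day.

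Wnk4, the second kinase, had the narrowest range. It measured 64.8 CPM in the control, 33.8 at day 1, 41.2 at day 2, 35.6 at day 4, 34.5 and 48.2 at day 7, 42.1 and 38.3 at day 11, and 63.8 and 66.0 at day 14. All libraries of days 1 to 11 lay between 33.8 and 48.2, and the day 14 libraries lay on either side of the control. In percent of control the course was 52.2, 63.5, 54.9, 63.8, 62.1 and 100.1. The direction on day 14 was not fixed, at 93.2% of control per non-mitochondrial UMI, 97.5% in tubular clusters and 106.7% after TMM scaling.

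**Figure D1:**
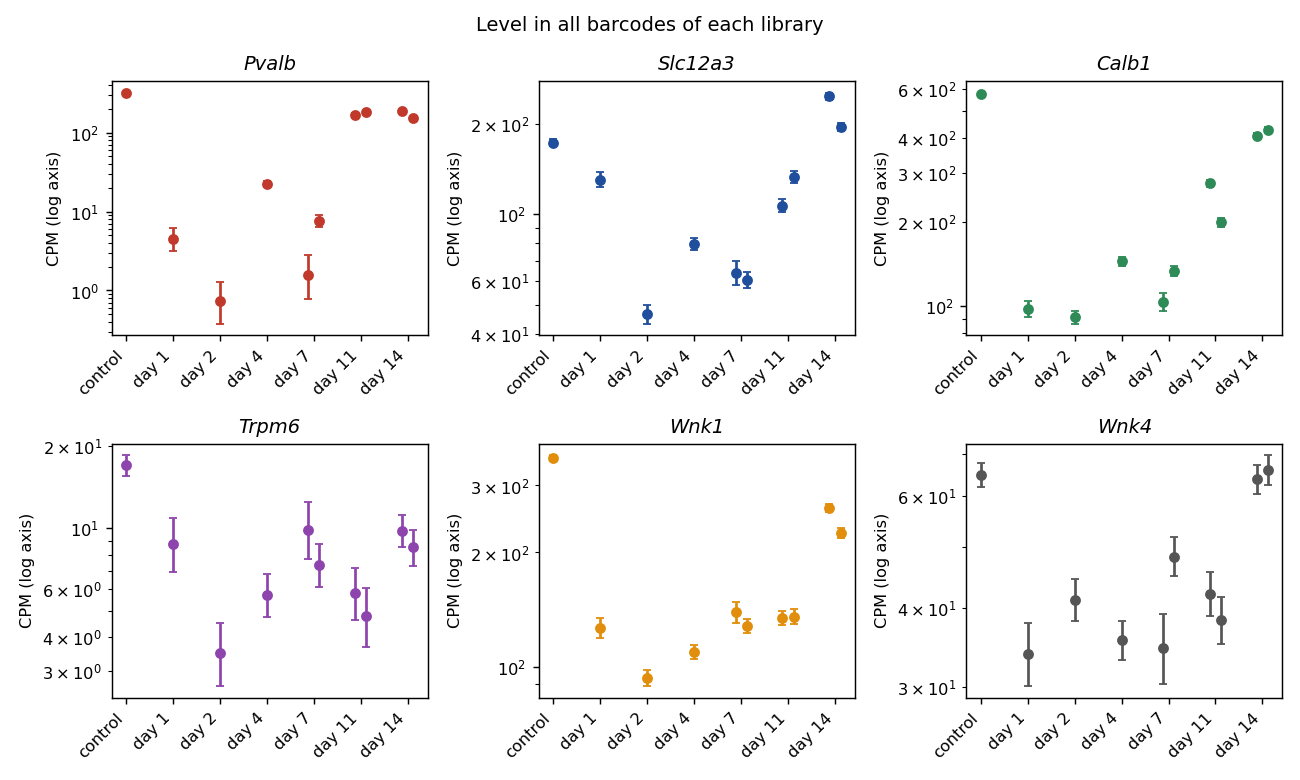
Level of each gene in all barcodes of each library, in CPM on a log axis whose range differs between panels. Points are libraries and bars are exact 95% Poisson intervals, which cover counting error only; Pvalb spans from 314 in the control to 0.734 at day 2, while Wnk4 spans from 66.0 at day 14 to 33.8 at day 1.

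Scaling mattered most on day 7. TMM moved every gene of the day 7 libraries by -0.78 and -0.73 on the log2 scale relative to control, of days 1, 2 and 4 by -0.55, -0.45 and -0.53, and of days 11 and 14 by -0.07 to 0.10. On TMM-scaled totals Pvalb stood at 0.879% of control on day 7, Slc12a3 at 21.4%, Calb1 at 12.3%, Wnk1 at 22.5% and Wnk4 at 38.0%. On the same totals Slc12a3 stood at 51.4% at day 1 and 136% at day 14. The day 11 tables also hold barcodes with few genes: 5362 of 10800 and 5424 of 10711 had under 500 genes, and no other day had any. In barcodes that passed the filters, Pvalb stood at 64.3% and Slc12a3 at 81.7% on day 11. Within tubular clusters alone, Slc12a3 stood at 89.8% at day 1 and 49.8% at day 7.

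The order of the 6 genes differed between loss and return. On day 1 the order from lowest to highest percentage of control was Pvalb, Calb1, Wnk1, Trpm6, Wnk4 and Slc12a3. Trpm6 (40.0% to 65.2%) and Wnk4 (46.1% to 58.9%) overlapped in their counting intervals and the other neighbours did not. On day 2 Slc12a3 stood beside Wnk1, with intervals of 25.0% to 29.1% and 25.1% to 27.9%, and Wnk4 was highest. On day 7 Pvalb and Calb1 were again lowest and did not overlap with their neighbours. Slc12a3 overlapped with Wnk1, and Trpm6 with Wnk4. On day 11 Trpm6 was lowest, then Wnk1 and Calb1, which overlapped, then Pvalb, then Wnk4 and Slc12a3, which overlapped. On day 14 Trpm6 and Pvalb overlapped at the bottom, Wnk1 and Calb1 overlapped above them, and Wnk4 and then Slc12a3 stood highest with no overlap. Pvalb was thus below all others on day 7, above Trpm6, Wnk1 and Calb1 at day 11, and in the lowest pair on day 14. In all barcodes its day 14 level was that of day 11. Slc12a3, Calb1, Trpm6, Wnk1 and Wnk4 each stood higher in both day 14 libraries than in both of day 11. In barcodes that passed the filters, Pvalb measured 189 and 199 CPM at day 11, above the 186 and 147 of day 14.

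**Figure D2:**
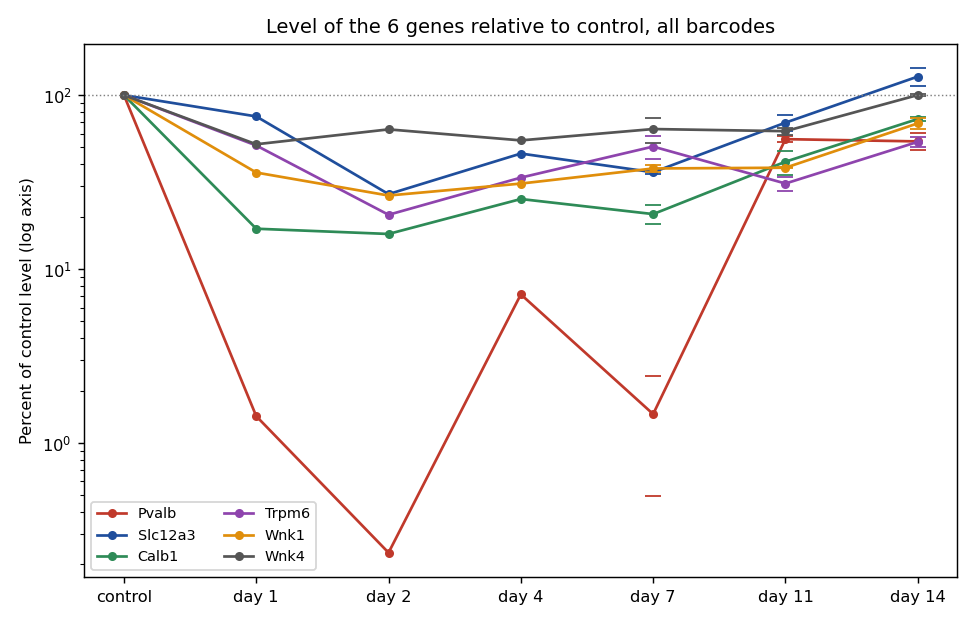
Mean level of each gene per day as a percentage of the single control library, all barcodes, log axis; dashes are the separate libraries of days 7, 11 and 14 and the dotted line is the control. Pvalb runs from 0.234% at day 2 to 55.8% at day 11, and Slc12a3 is the one gene whose day 14 libraries both lie above the line in CPM.

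The ratio of Pvalb to Slc12a3 UMIs within a library does not depend on the library's total. There were 1.82 Pvalb UMIs per Slc12a3 UMI in the control (95% interval 1.76 to 1.88). The ratio was 0.0344 at day 1, 0.0158 at day 2 and 0.282 at day 4. It was 0.0242 and 0.127 at day 7, 1.58 and 1.37 at day 11, and 0.767 and 0.777 at day 14. The intervals of days 11 and 14 did not overlap, and day 14 lay below day 11 and the control in both libraries. The day 14 libraries therefore held more Slc12a3 than Pvalb, in the reverse of the control and of day 11.

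Distal barcodes were then found without the 6 genes. Barcodes were clustered with the 6 genes and the genes of both pathway lists left out, and 1 cluster of 1701 barcodes was called distal tubule-like from 14 markers that include none of the 6. All 14 were at least 2 times higher there than in other barcodes. Its leading genes were Pvalb, Slc12a3, Uroc1, Calb1 and Lrrc52, with Trpm6 among the first 10. Distal barcodes were 403 of 5827 in the control (6.92%, exact 95% interval 6.28 to 7.60), 11 of 3390 at day 1 (0.324%), 7 of 3883 at day 2 (0.180%) and 77 of 6096 at day 4 (1.26%). Day 7 had 5 of 3440 (0.145%) and 43 of 4896 (0.878%). Day 11 had 3.83% and 3.31%, and day 14 had 6.75% and 5.91%. These shares depend on the clustering: a finer resolution gave 2.98% at day 1, 4.04% at day 2, 2.92% at day 4, and 1.19% and 3.27% at day 7. Clustering with both the 6 genes and the list genes included gave 1.71%, 6.88%, 1.77%, and 0.552% and 1.92% on the same days. Days 11 and 14 stayed between 3.31% and 6.78% under both. With the 6 genes and the list genes included, the day 2 barcodes called distal measured 4.46 CPM for Slc12a3 and 0.892 for Pvalb. The control barcodes of that clustering measured 1676 and 3001. The day 2 share of 6.88% thus does not count barcodes like those of the control. The summed level of the 14 markers in all barcodes was 4827 CPM in the control, 4590 at day 1, 4662 at day 2, 2943 at day 4, 2911 and 3681 at day 7, 3359 and 3087 at day 11, and 6242 and 5713 at day 14, with no marker at 0, so the marker sum did not follow the barcode share on days 1 and 2. S100g alone gave 2213 CPM of it in the control, 2058 at day 1 and 1326 at day 2. S100g, Klk1 and Tmem52b were also raised in principal-like and intercalated-like clusters, so the sum is not particular to distal barcodes. Single markers moved both ways on days 1 and 2, Klhl3 from 26.1 CPM in the control to 14.7 and 10.1, and Trpv5 from 2.72 to 8.51 and 9.48.

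**Figure D3:**
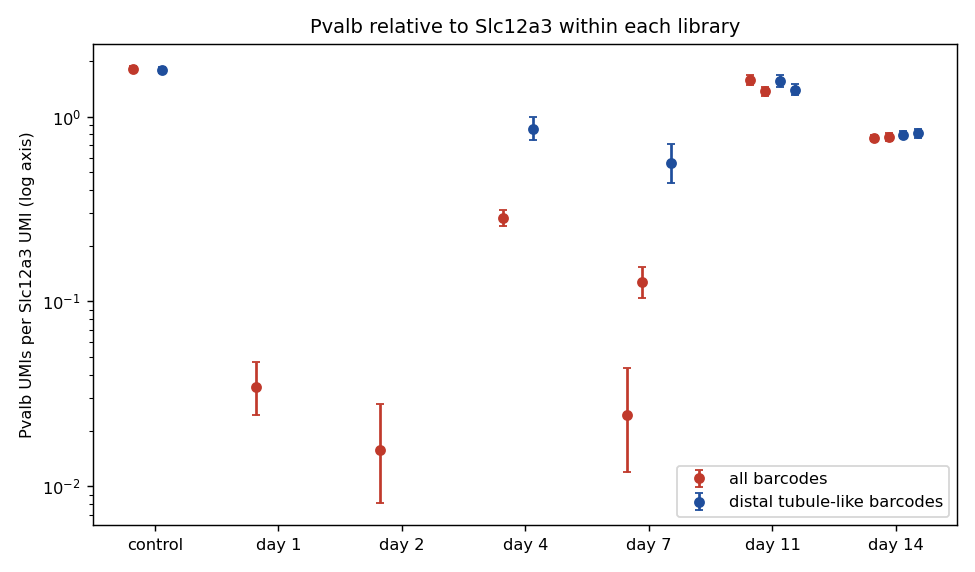
Pvalb UMIs per Slc12a3 UMI in each library, log axis, in all barcodes (red) and in distal tubule-like barcodes (blue, libraries with at least 20 such barcodes), with exact 95% counting intervals. The ratio is 1.82 in the control, at or below 0.282 from day 1 to day 7 in all barcodes, 1.37 to 1.58 at day 11 and 0.767 and 0.777 at day 14.

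Levels within distal barcodes are given next. Slc12a3 measured 1667 CPM in the control, 1802 at day 4, 1606 in the second day 7 library, 2063 and 2393 at day 11, and 2388 and 2133 at day 14. The 4 libraries of days 11 and 14 overlapped and all lay above the control. The day 4 difference of 0.11 on the log2 scale turned to -0.56 with finer clustering, to -0.38 when the 6 genes and the list genes both entered the clustering and to -0.25 on TMM-scaled totals, so the direction on day 4 was not fixed. In the second day 7 library the difference of -0.05 became -1.48 and -1.59 under the same clusterings. The finer clustering added a second cluster to the distal barcodes, and levels in its first cluster alone are given below. Days 1 and 2 and the first day 7 library had fewer than 20 distal barcodes and are not given.

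Pvalb in distal barcodes measured 2981 CPM in the control, 1550 at day 4, 898 in the second day 7 library, 3203 and 3344 at day 11, and 1900 and 1732 at day 14. Day 14 lay below day 11 and the control, with no overlap between the days. Day 11 lay above the control in CPM, at a mean of 109.8%, but at 97.9% and 96.6% of it on TMM-scaled totals, so that direction was not fixed. Day 14 stood at a mean of 60.9% in CPM, and at 57.3% and 52.8% on TMM-scaled totals. The day 4 level was -0.94 relative to control on the log2 scale, and -2.12 with finer clustering. The day 7 level was -1.73, and -3.71 with finer clustering. Pvalb per Slc12a3 UMI in the same barcodes was 1.79 in the control, 0.860 at day 4, 0.559 in the second day 7 library, 1.55 and 1.40 at day 11, and 0.796 and 0.812 at day 14. Day 14 lay below day 11 here too, and day 4 overlapped with day 14.

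Of the remaining genes in distal barcodes, Calb1 measured 4532 CPM in the control, 3901 at day 4, 1210 in the second day 7 library, 4071 and 2748 at day 11, and 3338 and 3695 at day 14. Days 11 and 14 overlapped. The day 4 level of Calb1 was 86.1% of control, but 44.5% (2016 CPM) with finer clustering and 66.6% when the 6 genes and the list genes entered it. The second day 7 library moved from -1.90 on the log2 scale to -2.46 and -2.61. Wnk1 measured 2155, 1377 and 1120 in the control, day 4 and day 7 libraries, then 1575 and 1541 at day 11 and 1906 and 1747 at day 14, with day 14 between day 11 and the control. Under the same clusterings Wnk1 moved from 63.9% of control at day 4 to 39.3% and 48.7%, and in the second day 7 library from -0.94 on the log2 scale to -1.98 and -2.02. Wnk4 measured 241 in the control, 197 at day 4, 229 and 206 at day 11, and 291 and 333 at day 14. For Wnk4 day 14 was thus above day 11 and the control. Its level of 346 in the second day 7 library rested on 42 UMIs, and that difference from control turned to -0.56 on the log2 scale with finer clustering, to -0.59 when the 6 genes and the list genes entered the clustering and to -0.02 on TMM-scaled totals. Trpm6 measured 139 in the control, 88.2 at day 4 and 69.9 to 97.0 on days 11 and 14, which overlapped, and rested on 7 UMIs on day 7.

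**Figure D4:**
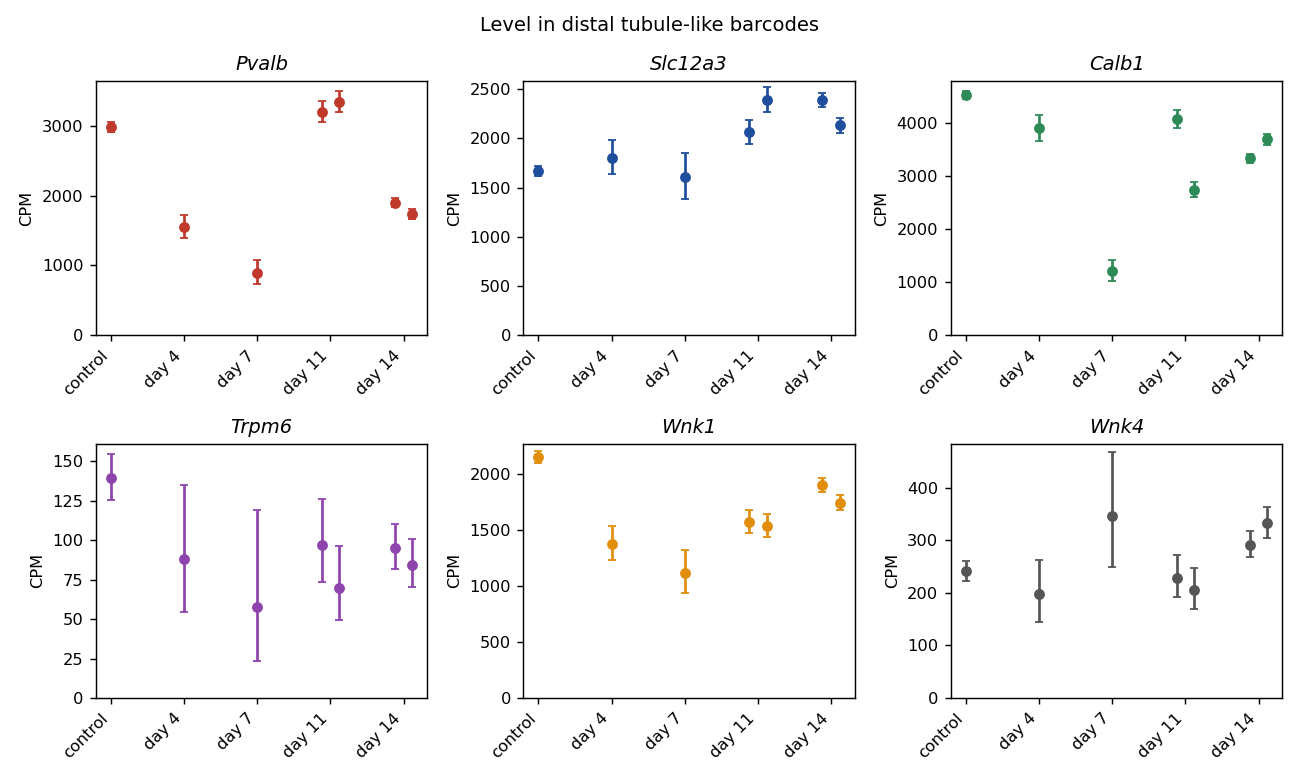
Level of each gene in distal tubule-like barcodes, in CPM on a linear axis from 0, for libraries with at least 20 such barcodes, with exact 95% Poisson intervals. Pvalb stands at 3203 and 3344 at day 11 and at 1900 and 1732 at day 14, while Slc12a3 lies between 2063 and 2393 on both days.

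At the finer resolution the barcodes called distal formed 2 clusters. The first was led by Pvalb and Slc12a3, and nearly all its barcodes were also in the main distal cluster (334 of 335 in the control, 41 of 42 at day 4). The second was led by Klk1, a tissue kallikrein, and its close relatives of the Klk1b family, whose reads counting may not separate, and S100g was among its raised markers. In the control its Pvalb level was 65.3 CPM, against 5584 for Calb1. The first cluster held 335 of the 404 distal barcodes of the control (82.9%), 79.9% and 81.7% at day 11, and 81.0% and 77.5% at day 14. On these days at most 3 barcodes of the second cluster lay outside the main distal cluster. Within the first cluster Pvalb measured 3493 CPM in the control, 3829 and 3910 at day 11, and 2339 and 2260 at day 14. Slc12a3 measured 1932, then 2404 and 2758, then 2907 and 2767. The lower Pvalb level of day 14 was therefore also present with the barcodes of the second cluster set aside. S100g differed within the first cluster too, at 7672 CPM in the control and means of 3938 at day 11 and 13074 at day 14. The part of cell makeup within the first cluster in the Pvalb level was not tested.

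On the earlier days the second cluster was mostly made of barcodes outside the main distal cluster. These were 90 of 99 at day 1, 150 of 156 at day 2, 100 of 136 at day 4, and 36 of 37 and 117 of 134 at day 7. In its barcodes Lcn2, which encodes a secreted protein made by injured tubules, measured 901 CPM at day 1, 264 at day 2, 798 at day 4, and 1341 and 1050 at day 7, against 0 in the control. The finer resolution thus did not divide the same barcodes on those days, and shares of the 2 clusters are not compared before day 11. The first cluster alone had 42 barcodes at day 4 and 26 in the second day 7 library. Slc12a3 measured 2573 and 2131 CPM in them, against 1932 in the control. Pvalb measured 2384 and 1216, against 3493, and Wnk4 209 and 368, against 256. The lower Slc12a3 of the finer resolution on these days was thus absent from the first cluster alone.

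For Slc12a3, Calb1, Trpm6, Wnk1 and Wnk4 the clusters that held the transcripts differed between days. Pvalb lay mostly in distal barcodes where its counts allowed a comparison. In the control 94.4% of Slc12a3 UMIs and 92.7% of Pvalb UMIs of used barcodes lay in distal barcodes. On days 11 and 14 it was 87.0% to 90.2% for Slc12a3 and 88.4% to 92.8% for Pvalb. On day 1 73.6% of Slc12a3 UMIs lay in injured tubule-like clusters and 0.452% in distal barcodes. On the same day erythroid-like barcodes, led by globin genes and not known to use these genes, held 14.1% of Slc12a3 UMIs (156 of 1107), 10.3% of those of Calb1 and 15.1% of those of Trpm6, so transcripts of that library also lay in cells that should lack them. The injured share of Slc12a3 was 63.5% at day 4 and 78.8% and 64.3% at day 7, against at most 3.32% on days 11 and 14. For Pvalb the distal barcodes still held 76.9% of UMIs on day 4 and 87.9% in the second day 7 library. The first day 7 library held 11 Pvalb UMIs and day 1 held 38 in used barcodes, too few to compare.

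The injured cluster that held most of this Slc12a3 was led by Cxcl17, Ccl20 and Gabrp, with Lcn2 among its first 10 genes, and 4 of the 14 distal markers were raised there (Tmem52b, Cwh43, Tfap2b and Sall3). In its barcodes Slc12a3 measured 388 CPM on day 1, 655 at day 2 (29 barcodes), 453 at day 4, and 324 and 266 at day 7. Pvalb measured 12.4 at day 1, 25.3 at day 4, and 4.70 and 1.90 at day 7, with no UMI on day 2. Lcn2 measured 3086 there on day 4, against 92.4 in the distal barcodes of that day. Umod, the defining gene of the thick limb, measured 4092 CPM there on day 1, 495 at day 2, 4315 at day 4, and 2561 and 5862 at day 7, against 995 in the distal barcodes of the control. On day 4 Slc12a3 measured 453 CPM in this cluster and 1802 in distal barcodes, and Pvalb 25.3 and 1550. The part of thick limb RNA in these levels was not tested.

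Trpm6 was placed like Slc12a3, with 88.5% of its UMIs in distal barcodes in the control and 67.1% in injured clusters on day 1, 59.8% at day 4, and 66.2% and 61.1% at day 7. Calb1 differed. In the control 73.9% of its UMIs lay in distal, 16.0% in intercalated-like and 5.96% in principal-like barcodes. On day 1 principal-like barcodes held 48.3% and injured clusters 14.6%, and on day 7 principal-like barcodes held 44.1% and 43.2%. Principal markers, 8 of 8 in the tables and none at 0, summed to 1261 CPM in the control, 2096 at day 1, 2467 and 2424 at day 7, and 1238 and 1409 at day 14. One of the 8 is Hsd11b2, which is also in the salt list described further on. Without it the sum was 705 in the control, 1131 at day 1, 812 and 1143 at day 7, and 687 in both libraries of day 14. The part of this in the Calb1 levels was not tested.

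The kinases were the least confined to distal barcodes. In the control 59.0% of Wnk1 UMIs were distal and 24.8% lay in thick limb-like barcodes. For Wnk4 the thick limb held 44.2% and distal barcodes 35.2%. On day 7 macrophage-like barcodes held 25.8% and 21.1% of Wnk1 UMIs but 4.91% and 1.82% of those of Wnk4. Injured clusters held 39.5% and 37.9% of Wnk1 and 57.6% and 49.2% of Wnk4 on that day. On day 14 distal barcodes held 66.5% and 61.4% of Wnk1 and 41.9% and 39.7% of Wnk4, above the control for both genes.

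**Figure D5:**
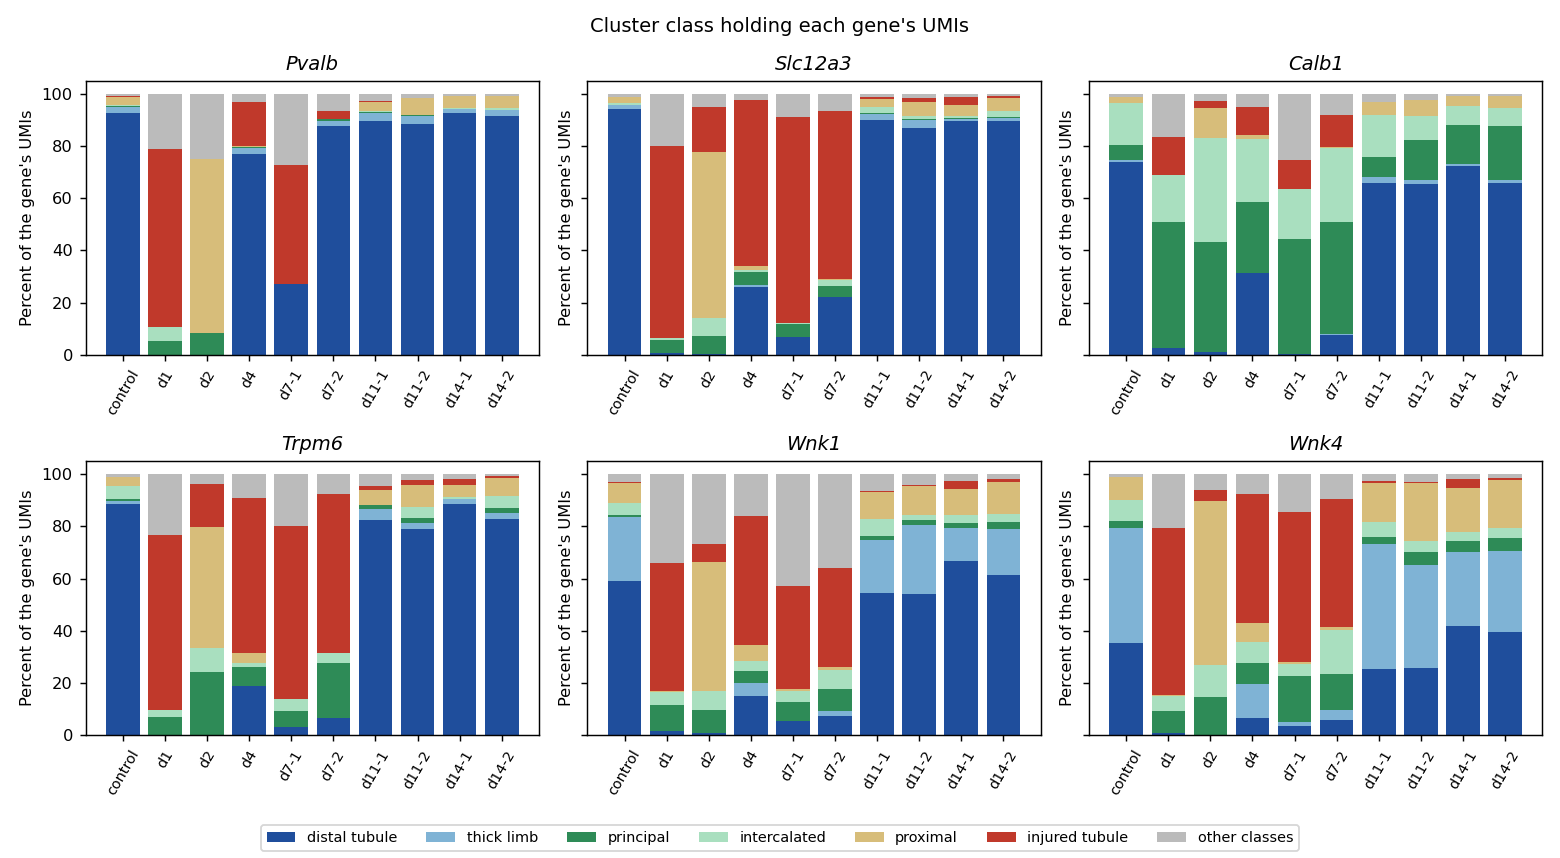
Percentage of each gene's UMIs, among used barcodes, that lay in each class of clusters, per library; d7-1 and d7-2 are the libraries of day 7. For Slc12a3 the distal part (dark blue) is 94.4% in the control and 25.9% at day 4, and the injured part (red) is 73.6% at day 1; the proximal part of day 2 (tan) lies in the cluster that was 96.8% day 2.

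In single barcodes with at least 1 Slc12a3 UMI, Pvalb was also detected in 371 of 519 in the control (71.5%, exact 95% interval 67.4 to 75.3). It was detected in 24 of 443 at day 1 (5.42%, 3.50 to 7.95), 6 of 183 at day 2 (3.28%), 59 of 411 at day 4 (14.4%), and 4 of 138 (2.90%) and 19 of 204 (9.31%) on day 7. On day 11 it was 65.6% and 53.6%, and on day 14 56.5% and 55.1%. Median depths were 4153 UMIs in the control and 1753 to 3272 on the other days. Among barcodes of the proximal clusters, which should lack the gene, Pvalb was detected in 6.28% in the control, 2.13% and 3.45% at day 11, 3.69% and 2.83% at day 14, 2 of 804 at day 4 and 0 of 165 in the second day 7 library. Day 1 and the first day 7 library had 27 and 32 proximal barcodes, too few for a background, and the proximal barcodes of day 2 are nearly all of the cluster that held most Slc12a3 of that day and serve as none.

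Slc12a3 itself was detected in barcodes that should lack it. It was found in 100 of 3328 proximal barcodes in the control and 4.02% and 3.78% at day 14, 3.40% of macrophage-like barcodes at day 1 and 1.56% and 1.03% at day 7, and 14.3% of erythroid-like barcodes at day 1 (121 of 844, median depth 1008.5 UMIs). Of the Slc12a3-positive barcodes, 27.3% were erythroid-like at day 1, and 29.2% and 31.8% proximal at day 14, so a share over all of them includes such barcodes. At day 2 64.5% were of the proximal class, which on that day is nearly all the cluster led by interferon-response genes. At the finer resolution, a cluster of 1100 barcodes, 97.5% of them day 2, was also led by such genes but had no segment name. The distal markers Tfap2b and Klk1 were raised in it. Whether the day 2 barcodes of the proximal class should lack Slc12a3 is not known. Among Slc12a3-positive barcodes of the distal and injured classes alone, a set chosen after seeing the data, Pvalb was detected in 98.5% in the control (326 of 331), 8.75% at day 1 (21 of 240), 17.7% at day 4, and 4 of 91 and 14.6% (18 of 123) at day 7. It was detected in 88.3% and 93.8% at day 11 and 91.9% and 91.7% at day 14. After thinning these were 89.1% in the control, 1.28% at day 1, 19.5% at day 4, 5.41% and 13.2% at day 7, 82.9% and 88.1% at day 11, and 82.8% and 81.3% at day 14. All libraries of days 1, 4 and 7 thus lay below those of days 11 and 14 in this set too, and day 2 had 20 such barcodes.

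After thinning each barcode to 1000 UMIs, the share over Slc12a3-positive barcodes of every class was 75.2% in the control, 1.66% at day 1 and 16.0% at day 4. It was 3.57% and 8.65% at day 7, 66.9% and 64.3% at day 11, and 63.7% and 63.4% at day 14. On day 2 it was 0 of 91 barcodes, which allows a share of up to 3.30%. With at least 2 Slc12a3 UMIs and no thinning, the share was 96.7% in the control, 9.74% at day 1, 26.8% at day 4, 89.2% and 93.4% at day 11, and 88.6% and 91.0% at day 14. Thinning left out 328 to 1440 used barcodes per library.

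The same Slc12a3-positive barcodes held Calb1 in 68.8% of cases in the control, 15.6% at day 1, 27.5% at day 4, 19.6% and 23.5% at day 7, 51.5% and 47.1% at day 11, and 56.5% and 54.5% at day 14. They held Wnk1 in 75.9% in the control, 33.9% at day 1, 42.0% and 57.8% at day 7, and 62.1% and 64.2% at day 14. In proximal barcodes Calb1 was found in 8.77% in the control and 6.14% and 8.16% at day 14, and Wnk1 in 16.8% in the control. Thinned to the same depth, Calb1 was found in 10.8% at day 1, 9.89% at day 2, 18.4% at day 4, and 10.7% and 8.65% at day 7. The thinned share of Pvalb, given above, was lower on days 1 and 2 and in the first day 7 library, close to that of Calb1 at day 4, and equal to it in the second day 7 library. On days 11 and 14 the thinned share of Pvalb was 63.4% to 66.9%, and that of Wnk1 was 56.6% to 67.4%.

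Other genes were ranked by the likeness of their course to the courses of Pvalb, Slc12a3, Calb1 and Trpm6, as Pearson's r of log2(level + 1) over the 10 libraries among 9030 genes with a mean of at least 10 CPM. All points share the libraries, their depth and their cell makeup. For Pvalb the most alike were Bdh1 (r = 0.99), Mep1b (0.98), Slco1a1 (0.97), Slc22a19 (0.97) and Tmem207 (0.97). Mep1b, Slco1a1 and Slc22a19 are genes of the proximal tubule. For Slc12a3 they were Tfrc (0.94), Cyp2a5 (0.92), Wwp1 (0.90), Rnf24 (0.90) and Ngef (0.90). For Calb1 they were Sfrp1 (0.97), Egf (0.97), Slc16a7 (0.96), Nnt (0.96) and Mfsd4 (0.95), and for Trpm6 Osbpl1a (0.95), Tmem161b (0.93), Acbd5 (0.93), Ninl (0.91) and Tarsl2 (0.89). Among the 6 genes, Pvalb was most alike to Calb1 (0.92) and least to Trpm6 (0.33). Slc12a3 was about equally alike to Calb1 (0.81), Pvalb (0.81) and Wnk1 (0.80).

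Other genes of the same pathways were tested as 2 lists, 19 genes of salt transport and 18 of calcium and magnesium transport, none of them among the 6. Both lists were chosen with earlier results of these data known, so their counts are not an independent test. Summed counts of all barcodes were compared with edgeR (quasi-likelihood test, p adjusted by Benjamini-Hochberg over 17485 genes), and a gene rose or fell at an adjusted p below 0.05. Both the day 7 and the day 14 comparison with control use the same control library, which is assumed to vary like the replicated days.

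On day 7 against control, 12 of the 19 salt genes fell and 0 rose, and 11 of the 18 calcium and magnesium genes fell and 1 rose. Over all genes 19.4% fell and 18.4% rose (37.8% in all). The median log2 change was -0.91 for the salt list and -1.08 for the other, against 0.03 over all genes. Egf, the source of a growth factor that stimulates magnesium uptake, fell by 6.13 on the log2 scale (SE 0.57, adjusted p = 2.22e-05), from 1906 CPM to 18.0 and 71.2. Kl, a co-receptor for a phosphate hormone, fell by 2.57 (SE 0.21, adjusted p = 9.81e-06), and Bsnd, a chloride channel subunit, fell by 2.01 (SE 0.25). Klhl3, an adaptor that targets WNK kinases for degradation, fell by 1.57, Kcnj1, a potassium channel, by 1.40, and S100g, a small calcium-binding protein, by 1.69. Trpv5, an apical calcium channel, rose by 2.44 on the log2 scale (SE 0.34, adjusted p = 3.15e-04), from 2.72 CPM to 29.8 and 20.6. Beside these, the 8 thick limb markers summed to 4182 CPM in the control and 1177 and 1711 at day 7, the 12 proximal markers to 9690 and to 1380 and 1648, and the macrophage markers to the values given above. Egf, Kcnj1, Bsnd and Kl are also expressed in the thick limb or other tubule segments. Trpv5 was also raised in the principal-like and intercalated-like clusters. The part of these cell types in the list counts was not tested.

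From day 7 to day 11, 10 of the 37 list genes rose and 10 fell, where 22.9% of all genes rose and 23.4% fell (46.3% in all). Egf rose by 3.80, Fxyd2, a subunit of the sodium pump, by 2.18, Pcbd1, a cofactor of a transcription factor of the tubule, by 2.13 and Kl by 1.64. Trpv5 fell by 3.87. Hsd11b2 and Nr3c2, the enzyme and receptor of the aldosterone response, both fell by 1.14. Beside these, the 12 proximal markers summed to 1380 and 1648 CPM at day 7 and to 12381 and 13726 at day 11, and the 8 thick limb markers reached 2731 and 2317 at day 11, with none at 0. The principal markers, Hsd11b2 among them, summed to 2467 and 2424 at day 7 and 1227 and 1052 at day 11 (without Hsd11b2, 812 and 1143 and then 749 and 719), and the macrophage markers to 6739 and 6885 and then 448 and 398. The part of these in the list counts was not tested.

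From day 11 to day 14, 9 of the 19 salt genes rose and 1 fell, and 10 of the 18 calcium and magnesium genes rose and 0 fell. Over all genes 9.40% rose and 1756 of 17485 fell (19.4% called in all). Kcnj16, a basolateral potassium channel subunit, rose by 1.87 (SE 0.18, adjusted p = 2.99e-04), and Klhl3 rose by 1.47 and Trpv5 by 1.72. S100g rose by 1.51, and Slc8a1, the sodium-calcium exchanger, by 1.46. Sgk1, a kinase induced by aldosterone, fell by 0.97, a call lost in tubular clusters and without the second library of either day. Nr3c2 rose by 1.10. The calls of Trpv5 and Nr3c2 were lost without the second day 11 library. Of the 37, 20 were called with all libraries, and 13 or 9 without the first or second day 11 library, 12 or 14 without the first or second day 14 library, and 11 in tubular clusters alone. Beside these counts, distal barcodes went from 3.83% and 3.31% to 6.75% and 5.91%, and the 14 distal markers, some of them list genes, from 3359 and 3087 CPM to 6242 and 5713. Within these sums S100g, counted above among the list genes that rose, went from 1251 and 1063 to 3251 and 2803. The thick limb markers summed to 2731 and 2317 at day 11 and 1967 and 2123 at day 14, and the macrophage markers to 448 and 398 and to 36.2 and 57.1. The part of these cell types in the list counts was not tested.

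On day 14 against control, 0 of the 19 salt genes passed the threshold in edgeR, while 7 had an unadjusted p below 0.05. Of the calcium and magnesium genes 1 rose, Pcbd1, by 1.10 (adjusted p = 0.0254, and 0.000494 to 0.131 over the alternatives), and 0 fell. Over all genes 4.84% rose and 3.84% fell (8.68% in all). The count of 1 over both lists was 3 with DESeq2, 13 when only the control and day 14 libraries entered the fit, 5 leaving out any one day 7 library and 0 leaving out any one day 14 library.

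Within distal barcodes 32 of the 37 list genes had enough counts, and 7565 genes were tested in all. Between days 11 and 14, 6 of 17 salt genes rose and 1 fell, and 5 of 15 calcium and magnesium genes rose and 0 fell, where 3.86% of all genes rose and 7.06% fell (10.9% in all). With DESeq2, 6 list genes were called in all between these days. Klhl3 rose by 1.02 (SE 0.17, adjusted p = 5.13e-04 in edgeR), Sgk1 by 1.38, Kcnj1 by 0.70, Egf by 0.86 and S100g by 0.77. Klhl3, S100g, Kcnj10, Cnnm2, Trpv5 and Slc8a1 are also among the 14 markers that named the cluster, although they were left out of the clustering. Against control, 4 of the 32 rose on day 14 and 3 fell, where 3.89% of all genes rose and 5.99% fell (9.87% in all). Those that rose included Sgk1 (2.37), Hsd11b2 (1.29) and S100g (0.54), and those that fell included Cul3 (-0.98) and Egf (-0.65). Leaving out any one day 14 library, 0 list genes and 0 of all genes passed in both comparisons. Leaving out any one day 11 library, the count against control was 11, and with DESeq2 it was 0.

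Markers of other cells in distal barcodes are given beside these counts. Thick limb markers, 8 of 8, summed to 1110 CPM in the control, 1055 and 1410 at day 11, and 1918 and 1285 at day 14. Principal markers, 8 of 8, summed to 776 in the control, 1389 and 801 at day 11, and 1614 and 2127 at day 14, so both day 14 libraries lay above both day 11 libraries and the control. Hsd11b2, itself counted above among the list genes that rose, made up 1047 and 1483 CPM of the day 14 sums. Without it the sum was 309 in the control, 391.5 and 322 at day 11, and 566 and 644 at day 14. Both day 14 libraries were again the highest of these. At day 4 and in the second day 7 library the principal sums were 3162 and 1795, and 1016 and 568 without Hsd11b2. Macrophage markers, 7 in the tables, summed to 5.28 in the control, 122 at day 4 and 148 in the second day 7 library. On days 11 and 14 they summed to at most 51.5. Proximal markers, 12 of 12, summed to 485 in the control, 977 and 1138 at day 11, and 750 and 991 at day 14. Injured tubule markers, 9 in all, summed to 3559 in the control, 14505 at day 4, 8836 in the second day 7 library, 5653 and 5971 at day 11, and 4443 and 5422 at day 14. Mitochondrial genes took a mean of 33.3% of UMIs in distal barcodes of the control, 24.9% and 20.01% at day 11 and 26.4% and 29.6% at day 14, and the median depth was 4852, 2102 and 2220, and 2853 and 3149 UMIs. The part of these in the levels and list counts was not tested.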

How the data were processed

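The authors deposited 1 table of counts for each of 10 libraries, with genes in rows and barcodes in columns, whole numbers read here as UMI counts, which the labels do not state. Per the labels' protocols, the authors made the libraries by Drop-seq with a modified Nextera XT preparation. Per the submitters' processing notes, Bowtie2 2.2.7 and the mm10 build were used. The tables hold no barcode under 500 genes, except those of day 11, which go down to 300.

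The 6 genes and both lists were chosen with earlier results of these data known. All-barcode sums used all 64803 deposited barcodes. For clusters, barcodes below 500 UMIs or 500 genes, or above 50% mitochondrial UMIs, were dropped and the highest 5% of doublet scores in each library removed, which left 50158. They were clustered on 2000 variable genes, 30 principal components and 20 neighbours by the Leiden method (igraph 0.11.9) at resolution 1, with 2 as the finer alternative. A class name needed 3 markers at least 2 times higher than elsewhere in at least 5% of barcodes, and is a resemblance. Library pairs shared 0 to 11 barcodes. The libraries of a day differed beyond counting noise (chi-square per degree of freedom 14.9 to 38.0).

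Sums were tested with edgeR 4.0.16 (R 4.3.3, TMM, its filter on low counts, 1 term per group), and DESeq2 1.42.0 served as an alternative. The edgeR fit had 3 residual degrees of freedom over all barcodes and 2 in distal barcodes. The SE is the log2 change divided by the square root of F and restates the test. Single-library intervals are exact (Poisson or Clopper-Pearson, 95%) and cover counting error only, and a count of 0 allows 3 counts. All 6 genes passed the low-count filter in both fits. The genes named were all 6, per comparison and direction the 4 called list genes that changed most, of which examples are printed and some are not reported here, and the 5 genes most alike in course. Tested on simulated data, the day 14 against day 11 fit on 17485 genes called 55% of 2-fold and 86% of 4-fold changes, and the day 7 against control fit 19% and 69%. The distal fit of day 14 against day 11, on 7565 genes, called 59% and 85%. Of the genes simulated with no change, at most 0.133% were called. The simulation changed 200 genes in 1 group, up or down at random, and gave all other genes the same mean level in every library. The real day 7 against control fit called 37.8% of genes, so these rates may not hold where so many genes change. Sequences are RefSeq's (GRCm38.p6, 5 of the 6 genes matched), and gene positions GENCODE's.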

Additional observations from a re-analysis of the deposited data

How the results depend on the processing

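The direction of every level of Pvalb and Slc12a3 against control on days 1, 7 and 14 in all barcodes was kept under the alternatives run, and the size moved in some. On TMM-scaled totals the log2 level of Pvalb on day 1 was -6.69, and that of Slc12a3 was -0.96 on day 1 and -2.23 on day 7. Slc12a3 was -0.15 on day 1 and -1.01 on day 7 in tubular clusters, -1.40 on day 7 in filtered barcodes, and -0.62 and -1.84 on days 1 and 7 per non-mitochondrial UMI, an alternative chosen after seeing the data. The level of Wnk4 on day 14 turned to -0.037 in tubular clusters and -0.10 per non-mitochondrial UMI, and was 0.025 or -0.022 leaving out 1 day 14 library. In distal barcodes Slc12a3 on day 4 turned to -0.38 when the clusters were made with the 6 genes and the list genes and to -0.56 at resolution 2, and Wnk4 in the second day 7 library to -0.59 and -0.56. On TMM-scaled totals of the distal barcodes, chosen after seeing the data, Pvalb at day 11 turned to -0.030 and -0.050, Slc12a3 at day 4 to -0.25 and Wnk4 in the second day 7 library to -0.019. In the first of the 2 distal clusters at resolution 2, Slc12a3 at day 4 stood at 133% of control in CPM. Wnk4 in the second day 7 library stood at 144% there, so neither turned without the second cluster. The cause of the turns was not tested.

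Counts of list genes called on day 7 against control (24) and on day 11 against day 7 (20) stayed within 1.5 times of these values under every alternative. On day 14 against day 11 the count was 11 in tubular clusters and 9 to 14 leaving out 1 library. On day 14 against control it was 3 with DESeq2, 6 with no filter on low counts, 3 in tubular clusters, 13 with only these groups, 3 with mitochondrial genes left out (chosen after seeing the data), and 0 to 5 leaving out 1 library. In distal barcodes on day 14 against day 11 it was 6 with DESeq2 and 0 to 12 leaving out 1 library. On day 14 against control it was 0 with DESeq2, 4 at resolution 2 and 0 to 11 leaving out 1 library. Where leaving out a library leaves a day with 1, that library is assumed to vary like the other groups. Deviations of same-numbered libraries correlated over genes at 0.26 (days 7 and 11), 0.03 (days 7 and 14) and -0.14 (days 11 and 14). With 2 libraries per day these values cannot decide whether the replicate numbers pair the libraries. With the number as a replicate block the count was 22 on day 11 against day 7, 19 on day 14 against day 11 and 12 for the same days in distal barcodes. With 12 Pvalb UMIs on day 2 and 11 in the first day 7 library, depth limits what can be said of those days.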
